A study of Mus musculus with 28 samples.

Results

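Immediate early genes are the genes that cells switch on first after a stimulus, before any new protein has to be made. A named set of 9 was followed here out of the 39152 gene symbols in the count table: Fos, Fosb, Fosl2, Jun, Junb, Egr1, Egr2, Nr4a1 and Ier2. The set was named by what the genes are and not by a threshold on these data, although earlier results of the data were known, and all 9 of 9 passed the filter on low counts in both ventricles. Fos, Fosb and Fosl2 belong to the Fos family and Jun and Junb to the Jun family, and a Fos protein pairs with a Jun protein to form AP-1, a transcription factor that binds short DNA sites. Egr1 and Egr2 are zinc finger transcription factors, Nr4a1 is an orphan nuclear receptor, and Ier2 is a small nuclear protein induced by growth factors. Serum response factor (Srf) and CREB hold many immediate early genes ready, signals through MAP kinases and calcium switch them on, and their transcripts are short-lived. In the heart they are known to respond to stretch, hormones and injury.

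Bulk RNA sequencing was done on 28 pieces of ventricle from 16 C57BL6 mice, 16 of left ventricle (LV) and 12 of right ventricle (RV). Left and right pieces were both sequenced from 12 animals. All animals carried Pkp2 fl/fl alleles, so that both copies of Pkp2, which encodes the desmosomal protein plakophilin-2, could be cut out by Cre. In cKO mice the Cre was αMyHC-Cre-ER(T2), which is driven by a cardiomyocyte promoter and activated by tamoxifen, and the other cells of the heart kept the gene. The mice were 3 to 10 months old and the study's methods give collection at 9 weeks after induction for this dose experiment, with no separate time for each group and no order or time of day of collection. Since vehicle-treated cKO mice did not live as long as that in another experiment of the study, the time after induction at which the cKO pieces were taken is uncertain, and it may differ from that of the other groups.

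Vehicle-treated cKO mice received HBSS, a salt buffer (cKO, n = 4 LV and 4 RV). Animals called 3E13 were cKO mice given TN-401, an AAV9 vector carrying human PKP2, at 3E13 vg/kg in a single retro-orbital injection 1 week before tamoxifen (n = 4 LV and 2 RV). Animals called 6E13 were treated likewise at 6E13 vg/kg (n = 3 LV and 3 RV). The WT animals were Cre-negative Pkp2 fl/fl littermates given HBSS (n = 5 LV and 3 RV). A library is named below by its group and animal number, and each library of a group came from a different animal.

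Total counts ran from 19364737 to 39381144 per library. Mouse Pkp2 averaged 42.8 ± 10.7 CPM in cKO LV and 112 ± 6.90 CPM in WT LV (SD, n = 4 and 5), and 34.4 ± 4.53 CPM in cKO RV and 115 ± 6.00 CPM in WT RV (SD, n = 4 and 3), where CPM are counts relative to the library total after TMM scaling. Human PKP2 reads were found in every TN-401 library and had 0 counts in every cKO and WT library. In LV human PKP2 was at 352, 167, 302 and 364 CPM at 3E13 and 535, 333 and 372 CPM at 6E13, so the doses overlapped. In RV it was at 277 and 242 CPM at 3E13 and 466, 305 and 295 CPM at 6E13. Cardiac muscle was present in every library, since the 6 cardiomyocyte markers summed to between 9322 and 38456 CPM. That sum does not tell ventricle from atrium. The 5 atrial muscle markers summed to 187 to 1726 CPM in cKO RV and 19.2 to 31.9 CPM in WT RV. In LV they summed to 167 to 551 CPM in cKO and 7.99 to 59.4 CPM in WT. Whether atrial tissue was in the pieces was not tested. Other cells of the heart moved with the groups. In LV the 8 macrophage and monocyte markers summed to 239.7 to 1117 CPM in cKO and 116 to 146 CPM in WT, 7 fibroblast markers to 2033 to 4851 CPM in cKO and 530.4 to 648 CPM in WT, and 6 cardiomyocyte markers to 10173 to 24955 CPM in cKO and 31747 to 34702 CPM in WT. Their part in the results below was not tested, and in pieces of whole tissue more or fewer cells of a type and more or less RNA per cell cannot be told apart. One LV library stood apart for these genes, 6E13 animal 631, and cKO animal 177 was the highest cKO library for most of them. Animal 177 in LV also stood apart over all genes: it was the highest LV library for 22.6% of the genes tested, its 5 neutrophil markers summed to 103 CPM (2.06 to 6.72 CPM in the other cKO LV libraries), its macrophage and monocyte markers to 1117 CPM (239.7 to 573 CPM in the others), its cardiomyocyte sum was the lowest in LV and so was its share of mitochondrial counts (18.2%, with 23.5% in the next). Calls that end, and values that move by over 1.5 times, when either library is left out are given with and without it.

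Short sites in front of these genes are what Srf, CREB and AP-1 read, and the promoters of 5 members are shown as examples. They were picked with the levels of these genes known. Whether the sites bear on the levels in these hearts was not tested. Each sequence is the 130 bases that end just before the annotated transcription start, 5′ to 3′ on the gene's strand, from RefSeq for the GRCm38.p6 build, and capitals mark every match to a searched motif on either strand. The windows are chr10:67537739-67537868 (plus) for Egr2, chr12:85473760-85473889 (plus) for Fos, chr8:84978749-84978878 (minus) for Junb, chr7:19310046-19310175 (minus) for Fosb and chr4:95052223-95052352 (minus) for Jun.
Egr2: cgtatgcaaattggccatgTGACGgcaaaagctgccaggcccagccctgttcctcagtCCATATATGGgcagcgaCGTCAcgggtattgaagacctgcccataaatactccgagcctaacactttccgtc
Fos: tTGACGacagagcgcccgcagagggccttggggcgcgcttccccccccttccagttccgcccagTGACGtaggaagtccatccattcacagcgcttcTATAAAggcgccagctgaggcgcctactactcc
Junb: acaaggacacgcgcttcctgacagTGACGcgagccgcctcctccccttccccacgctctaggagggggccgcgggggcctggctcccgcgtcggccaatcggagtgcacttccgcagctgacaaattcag
Fosb: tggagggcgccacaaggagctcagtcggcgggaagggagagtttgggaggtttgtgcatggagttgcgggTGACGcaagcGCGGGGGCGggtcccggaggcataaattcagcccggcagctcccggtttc
Jun: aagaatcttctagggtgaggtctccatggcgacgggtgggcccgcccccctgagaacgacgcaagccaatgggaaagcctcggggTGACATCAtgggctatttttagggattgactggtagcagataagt

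Of the 9 members, 7 matched a RefSeq window of 250 bases before to 50 bases after the start, and Egr1 and Ier2 did not. The CArG box, the site read by Srf (CC, then 6 bases that are A or T, then GG), was found in Egr2 alone of the 7, at bases 72 to 63 before the start, and in 1.63% of all 32851 windows searched on both strands. Bases outside the windows were not searched, so a gene without a match may still carry the site further from its start. TGACG, the core of the site read by CREB, was found in Egr2, Fos, Fosb, Junb and Nr4a1, against 20.8% of all windows. In Egr2 it occurred at bases 111 to 107 on the gene's strand and at bases 55 to 51 on the other strand. In Fos it occurred at bases 129 to 125 and 66 to 62, in Fosb at bases 60 to 56 and in Junb at bases 106 to 102. The longer TGACGTCA (1.79% of windows) and the AP-1 site TGANTCA (7.81%) were found in none of the 7. The Jun window held the AP-1-like TGACATCA at bases 45 to 38 before the start (3.62% of windows), and the Egr site GCGNGGGCG was found in Fosb, Fosl2 and Nr4a1 (5.55% of windows). A match is a run of letters in the sequence and says nothing of what is bound there.

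The 9 genes lie on 8 chromosomes of the GRCm39 build and all are protein coding. Fos is at chr12:85520658-85524047 on the plus strand, Fosb at chr7:19036621-19043976 (minus), Fosl2 at chr5:32292707-32315186 (plus), Jun at chr4:94937271-94940459 (minus), Junb at chr8:85701113-85705359 (minus), Egr1 at chr18:34992876-34998049 (plus), Egr2 at chr10:67371305-67378018 (plus), Nr4a1 at chr15:101151980-101172681 (plus) and Ier2 at chr8:85387960-85389483 (minus). Jun overlaps Junos on the other strand over 3189 bases, with at most 41 counts for Junos in a library. Junb overlaps Prdx2 on the other strand over 1238 bases, with up to 4763 counts for Prdx2. Whether strand was used in the counting is not stated, so reads from such partners may not be told apart.

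Per transcript length, Jun was the most abundant of the 9 in WT LV, with a median of 17.1 TPM, an abundance corrected for transcript length (13.0 to 21.6 TPM over 5 libraries). Egr1 followed at a median of 11.2 TPM (8.64 to 15.4 TPM), then Ier2 at 5.01, Junb at 4.82, Nr4a1 at 4.49 and Fosl2 at 4.35 TPM, whose ranges overlapped. Fos had a median of 1.65 TPM and Egr2 of 0.210 TPM (0.181 to 0.476 TPM), and Fosb was listed at 0 in 4 of the 5 libraries. In cKO LV the order was Jun at a median of 26.6 TPM, Fosl2 at 20.8, Nr4a1 at 19.8, Egr1 at 18.2, Junb at 17.7, Fos at 9.80, Ier2 at 7.99, Egr2 at 3.25 and Fosb at 0.357 TPM, with overlapping ranges between neighbours. TPM levels are not comparable between groups without a correction: on log2(TPM + 1) the median gene stood 0.37 higher in cKO than in WT in LV and 0.54 higher in RV, so the group comparisons below were made on counts.

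The first comparison was of vehicle-treated cKO hearts with WT hearts, and it asked which of the 9 genes differed between them. These groups differ in Cre as well as in Pkp2, and no Cre-positive group with intact Pkp2 was sequenced. Effects of Cre and of Pkp2 loss therefore cannot be told apart. The methods name tamoxifen for the cKO mice and do not say whether WT mice received it. Egr2, barely detected in WT hearts, had the largest fitted difference of the members with a fold change, and Fosl2, Junb and Fos were also higher in cKO in both ventricles. In LV 4 of the 9 members were higher at an adjusted p under 0.05 (edgeR quasi-likelihood test, Benjamini-Hochberg over all genes tested) and none lower, where 19.7% of all 16410 genes tested were higher and 16.1% lower by the same rule (3236 and 2639 genes, but 7209 and 580 by limma on log2(TPM + 1), where the median gene is shifted). In RV 6 of the 9 were higher and none lower, where 19.8% of all 17307 genes were higher and 17.6% lower (3427 and 3041 genes, but 9478 and 545 by limma on log2(TPM + 1)). The median log2 fold change of all 9 members, with the barely counted Fosb included, was 1.65 in LV and 1.70 in RV, beside 0.05 and 0.06 for all genes tested.

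Egr2, a zinc finger factor with roles in nerve myelination and in lymphocytes, had 19.5, 4.38, 7.68 and 3.70 CPM in cKO LV (animals 177, 180, 257 and 264), against 1.28, 0.656, 0.716, 0.765 and 0.839 CPM in WT LV (animals 248, 626, 636, 637 and 647). Every cKO library lay above every WT library, with animal 177 the highest. The fitted difference was 3.38 ± 0.69 on the log2 scale (SE, adjusted p = 0.00162), and 2.62 without animal 177 (adjusted p = 0.00578). In RV Egr2 had 23.7, 8.10, 11.1 and 8.03 CPM in cKO (same animals), against 0.590, 1.04 and 0.947 CPM in WT (animals 636, 637 and 647). The groups did not overlap here either, and the log2 fold change was 3.88 ± 0.49 (adjusted p = 0.000126). Groups that did not overlap, with cKO above, were found for Fosl2 and Egr2 in LV, where 14.2% of all genes behaved so, and for Fosl2, Junb, Egr2 and Ier2 in RV, where 21.2% did.

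Egr1, the better known member of the same family and an activator of many growth and matrix genes, behaved differently in LV. It had 82.5, 55.8, 44.4 and 46.7 CPM in cKO LV, against 40.9, 38.5, 53.9, 46.6 and 32.2 CPM in WT LV. The groups overlapped and the log2 fold change was 0.43 ± 0.53 (adjusted p = 0.566). In RV it had 212, 71.9, 54.0 and 72.0 CPM in cKO, against 56.3, 42.5 and 20.5 CPM in WT. Animal 177 was far above the other cKO libraries, and the log2 fold change of 1.37 ± 0.49 (adjusted p = 0.0478) became 0.72 without that animal (adjusted p = 0.146). The call was also lost without WT animal 637 or 647, and with length offsets, a sex term or only these groups fitted (adjusted p between 0.0534 and 0.0785).

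Fosl2 encodes Fra-2, a Fos family protein without the strong activation domain of Fos, whose overexpression in mice is known to cause fibrosis. It had 189, 72.7, 59.6 and 174 CPM in cKO LV (animals 177, 180, 257 and 264), against 35.6, 31.4, 31.1, 49.6 and 33.9 CPM in WT LV (animals 248, 626, 636, 637 and 647). All cKO libraries were above all WT libraries, and animals 177 and 264 stood well above the others. Fosl2 was thus higher by 1.77 ± 0.31 on the log2 scale (adjusted p = 0.000565). Right ventricles had 131, 96.7, 69.2 and 254 CPM of Fosl2 in cKO, against 30.4, 63.2 and 33.7 CPM in WT. Animal 264 was the highest in this ventricle and the groups again did not overlap, with a log2 fold change of 1.70 ± 0.40 (adjusted p = 0.00584). Fosl2 and Egr2 kept their calls in both ventricles whichever single animal was left out.

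Fos, the founding member of the family, had 35.0, 8.73, 3.87 and 20.8 CPM in cKO LV, against 3.31, 1.84, 3.14, 5.17 and 1.72 CPM in WT LV. Animal 257 lay within the WT range and the other cKO libraries above it. The log2 fold change was 2.50 ± 0.88 (adjusted p = 0.0363) and 1.87 without cKO animal 177 (adjusted p = 0.128), and the call was also lost without cKO animal 264 or without any of the WT animals but 637. In RV Fos had 51.0, 15.6, 7.22 and 29.3 CPM in cKO, against 4.97, 7.74 and 2.97 CPM in WT. Animal 257 again fell within the WT range, and the log2 fold change was 2.31 ± 0.68 (adjusted p = 0.0196). Leaving out cKO animal 177 (adjusted p = 0.0523), or WT animal 636 or 647, ended that call.

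Fosb, which in its truncated form accumulates in neurons under repeated stimulation, was near the limit of counting. In LV it had 0 counts in 1 of 4 cKO libraries, with at most 137 counts, and 0 counts in 4 of 5 WT libraries, with 21 counts in the remaining one. In RV it had 0 counts in 2 of 4 cKO libraries, with at most 109 counts, and in 2 of 3 WT libraries, with 7 counts in the remaining one. A library with 0 counts may still have had up to 3, and no fold change is given for this gene.

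**Figure D1:**
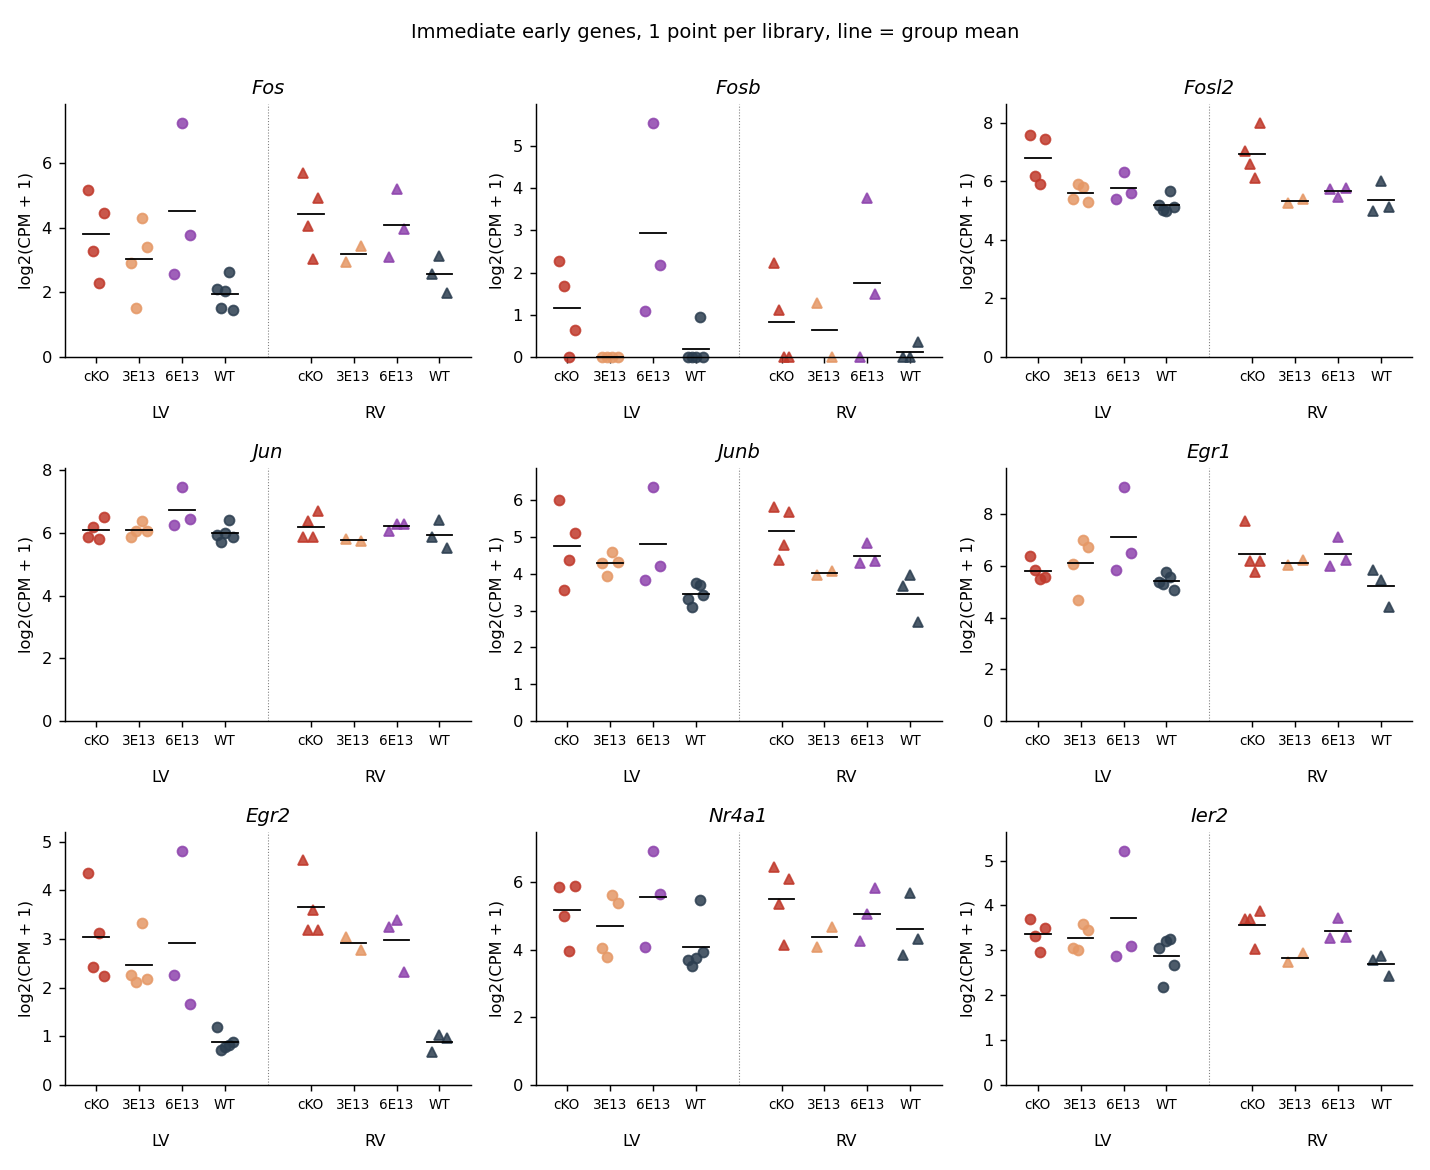
Level of each of the 9 genes in every library, as log2(CPM + 1) on the vertical axis, with LV libraries as circles and RV libraries as triangles, grouped as cKO, 3E13, 6E13 and WT, and a line at the group mean. Egr2 in cKO libraries stands clear of WT in both ventricles, Jun in cKO overlaps WT, and 6E13 animal 631 is the top LV point in every panel but Fosl2.

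Jun and Junb, the obligate partners of the Fos proteins, did not move together. Junb had 63.7, 10.9, 19.6 and 33.7 CPM in cKO LV, against 9.03, 7.62, 12.6, 11.9 and 9.76 CPM in WT LV, with cKO animal 180 inside the WT range. Its log2 fold change was 1.65 ± 0.50 (adjusted p = 0.0181), and 1.06 without cKO animal 177 (adjusted p = 0.1). In RV Junb had 55.3, 19.7, 26.8 and 50.6 CPM in cKO, against 11.7, 14.7 and 5.48 CPM in WT. These groups did not overlap, and the log2 fold change was 1.85 ± 0.40 (adjusted p = 0.00347), a call that every omission of a single animal left in place.

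Jun had 56.9, 71.1, 54.9 and 90.5 CPM in cKO LV, against 60.0, 50.8, 63.4, 84.4 and 57.2 CPM in WT LV. The ranges coincided and the log2 fold change was 0.11 ± 0.23 (adjusted p = 0.736). In RV it had 57.7, 82.3, 57.2 and 102 CPM in cKO, against 57.0, 84.1 and 44.7 CPM in WT, with a log2 fold change of 0.27 ± 0.23 (adjusted p = 0.394). On log2(TPM + 1) Jun differed by 0.64 in LV and 1.10 in RV (limma, adjusted p = 0.0448 and 0.000658), of which 0.28 and 0.56 remained over the median gene. Jun had the least spread of the members between animals of a group in LV, at percentile 66.2 of 13355 genes, where Fos was at percentile 97.3.

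Nr4a1, a receptor with no known natural ligand that also acts in macrophages, had 56.5, 30.7, 14.6 and 57.8 CPM in cKO LV, against 11.96, 10.5, 12.5, 42.8 and 14.3 CPM in WT LV. WT animal 637 lay among the cKO libraries, and the log2 fold change was 1.12 ± 0.60 (adjusted p = 0.16). In RV it had 86.0, 39.8, 16.5 and 66.9 CPM in cKO, against 13.4, 49.8 and 18.8 CPM in WT, and the log2 fold change was 0.94 ± 0.58 (adjusted p = 0.234). WT animal 637 was again the highest WT library. On log2(TPM + 1) Nr4a1 passed the threshold in both ventricles, at 1.51 in LV and 1.65 in RV (limma, adjusted p = 0.0384 and 0.0201), of which 1.14 and 1.11 remained over the median gene.

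Ier2 had 12.04, 8.93, 6.81 and 10.4 CPM in cKO LV, against 7.23, 3.57, 8.21, 8.46 and 5.38 CPM in WT LV. The groups overlapped and the log2 fold change was 0.54 ± 0.42 (adjusted p = 0.347). In RV it had 11.9, 12.02, 7.16 and 13.6 CPM in cKO, against 5.85, 6.29 and 4.41 CPM in WT. All cKO libraries were above all WT libraries, by a log2 fold change of 1.02 ± 0.23 (adjusted p = 0.00529), and no omission of a single animal ended this call. Whether the cKO difference was larger in RV than in LV was tested within animals, and no member passed (0.88 ± 0.43 on the log2 scale for Egr1, adjusted p = 0.508, and 0.61 ± 0.39 for Ier2, adjusted p = 0.655). None of the 9 had an unadjusted p under 0.05 in that test, where 10.4% of all 17981 genes did and 0.0111% passed after adjustment.

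**Figure D2:**
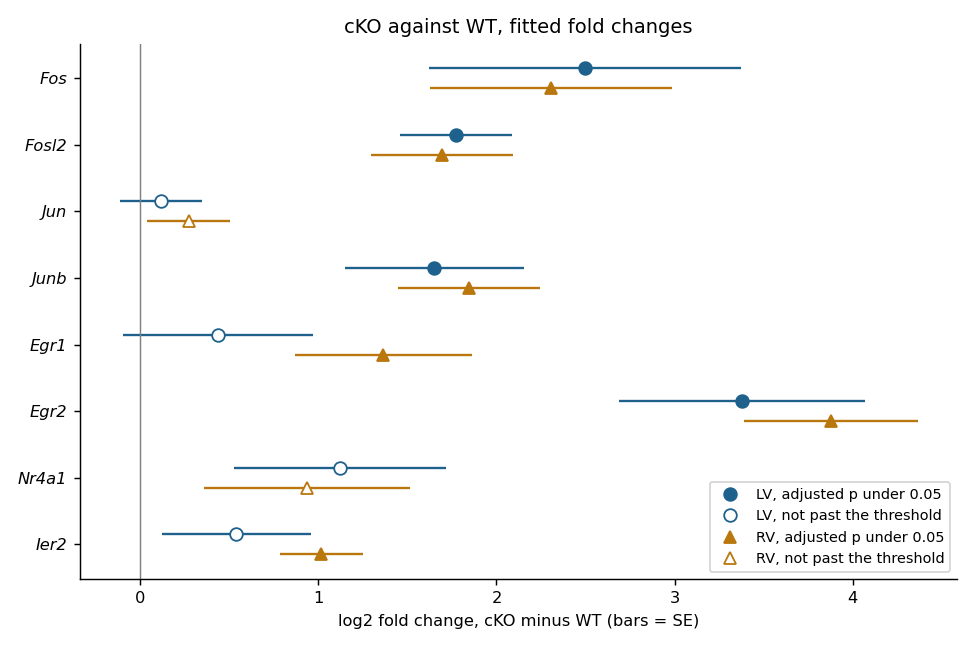
Fitted log2 fold change of cKO minus WT for each gene except Fosb (horizontal axis, bars are the SE), with LV as circles and RV as triangles, and filled symbols for an adjusted p under 0.05. Egr2 lies furthest to the right in both ventricles (3.38 in LV and 3.88 in RV) and Jun lies nearest to 0.

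Other genes of the same response were described by fixed lists. Of 9 tested partners and relatives in the AP-1 group, 4 were higher and none lower in cKO LV, and 6 of 10 were higher in cKO RV. In LV these were Maff (log2 fold change 2.25 ± 0.42, adjusted p = 0.000884), a small Maf protein, Jdp2 (1.55 ± 0.27, adjusted p = 0.000524), which represses AP-1 in mammalian cells, Mafk (0.84 ± 0.19, adjusted p = 0.00331) and Jund (0.49 ± 0.10, adjusted p = 0.00182). By the same rule 19.7% of all genes tested were higher and 16.1% lower in LV, and 19.8% higher and 17.6% lower in RV. Genes of the lists were not fitted without cKO animal 177. Of 33 other immediate early genes tested, 17 were higher and none lower in LV, and 19 were higher and none lower in RV. Animal 177 held the highest LV value of 9 of these 33. The list's median log2 fold change was 0.97 in LV and 1.00 in RV. Connective tissue growth factor (Ctgf in the files) averaged 446 CPM in cKO LV and 42.5 CPM in WT LV, with a log2 fold change of 3.39 ± 0.26 (adjusted p = 9.51e-07). The growth regulator Myc followed at 2.48 ± 0.41 (adjusted p = 0.000339), Gem, a small GTPase that limits calcium channels, at 1.59 ± 0.29 (adjusted p = 0.000713), and the zinc finger gene Klf6 at 0.97 ± 0.17 (adjusted p = 0.00047).

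Genes that dampen the signals upstream also differed. Of 20 such feedback genes, 11 were higher and 2 lower in cKO LV, and 14 were higher and 1 lower in cKO RV. Errfi1, an inhibitor of the EGF receptor, averaged 104 CPM in cKO LV and 21.8 CPM in WT LV (log2 fold change 2.26 ± 0.34, adjusted p = 0.000176), and Spry1, an inhibitor of growth factor signalling, was higher by 1.20 ± 0.18 (adjusted p = 0.000164). Dusp10, a phosphatase for stress kinases, fell to 5.23 CPM in cKO LV, against 11.5 CPM in WT LV (log2 fold change -1.13 ± 0.17, adjusted p = 0.000212). Of kinases and factors that induce immediate early genes, 4 were higher and 6 lower of 21 tested in LV, and 5 higher and 5 lower of 22 in RV. Of all genes, 19.7% were higher and 16.1% lower in LV, and 19.8% higher and 17.6% lower in RV. Camk2d, the main cardiac calcium/calmodulin kinase, had a log2 fold change of -0.48 ± 0.09 in LV (adjusted p = 0.00086). Of 11 heat shock genes, 1 was higher and 2 lower in LV and 3 were lower in RV, the 2 lower ones in LV being the mitochondrial chaperones Hspd1 (-0.99 ± 0.17, adjusted p = 0.000565) and Hspe1 (-0.70 ± 0.14, adjusted p = 0.0017).

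The second set of comparisons asked how the 9 genes stood in cKO hearts given TN-401. Fosl2 was lower than in vehicle-treated cKO hearts at both doses and in both ventricles. For Egr2, every TN-401 library held more than any WT library of the same ventricle. No other member was called lower than cKO by edgeR at either dose, and Egr1 was higher in 6E13 LV, a call that was lost without animal 631. The comparisons of both doses with cKO share the same cKO libraries, and likewise those with WT.

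For Fosl2 the levels in LV were 41.5, 59.7, 54.7 and 38.5 CPM at 3E13 (animals 181, 182, 252 and 253), against 189, 72.7, 59.6 and 174 CPM in cKO LV. All but one of the 3E13 libraries lay below the lowest cKO library, and the log2 fold change was -1.35 ± 0.33 (adjusted p = 0.0198). At 6E13 Fosl2 had 41.5, 78.6 and 47.8 CPM in LV (animals 250, 631 and 645), with animal 631 inside the cKO range, and the log2 fold change from cKO was -1.15 ± 0.36 (adjusted p = 0.0421). The 3E13 call was lost without cKO animal 264 or 3E13 animal 181 or 253, with adjusted p between 0.0519 and 0.0676. The 6E13 call was lost without cKO animal 177 or 264 or 6E13 animal 250 or 645, with adjusted p between 0.1 and 0.154. Fitting only the compared groups ended both calls, with adjusted p = 0.118 at 3E13 and 0.194 at 6E13, and length offsets ended the 6E13 call (adjusted p = 0.0543).

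In RV Fosl2 had 37.6 and 41.4 CPM at 3E13 (animals 181 and 253), against 131, 96.7, 69.2 and 254 CPM in cKO, a log2 fold change of -1.80 ± 0.47 (adjusted p = 0.0386). At 6E13 it had 52.4, 43.2 and 54.4 CPM in RV (animals 250, 631 and 645), and the log2 fold change from cKO was -1.46 ± 0.39 (adjusted p = 0.021). Neither dose overlapped with cKO in RV. The 3E13 call was lost without cKO animal 177 or either 3E13 animal (adjusted p between 0.0519 and 0.269), and the 6E13 call without any 1 of the 3 dosed animals (adjusted p between 0.0554 and 0.0819). A sex term (adjusted p = 0.0533) or a fit of the compared groups alone (adjusted p = 0.097) also ended the 3E13 call. By edgeR, Fosl2 was the 1 member lower than cKO at 3E13 in LV, where 6.25% of all genes tested were lower, and in RV, where 3.83% were lower. It was also the 1 member lower at 6E13 in LV (8.16% of all genes) and in RV (10.9%). Groups that did not overlap, below cKO, were found in 3E13 RV for Fosl2, Jun, Junb, Egr2 and Ier2 (17.4% of all genes) and in 6E13 RV for Fosl2 alone (15.7%).

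Other tools called more members lower than cKO in RV. At 3E13 the log2 fold change of Junb was -1.31 ± 0.45 (edgeR, adjusted p = 0.0907, against 0.012 by DESeq2 and 0.0196 by limma on log2(TPM + 1)). That of Ier2 was -0.86 ± 0.27 (edgeR, adjusted p = 0.0674, against 0.0183 by DESeq2 and 0.00461 by limma). Limma also called Jun lower at 3E13 (adjusted p = 0.00574), and at 6E13 it called Jun, Junb, Egr2 and Ier2 lower (adjusted p between 0.0285 and 0.0388), where on that scale the median gene was 0.40 lower at 3E13 and 0.37 lower at 6E13. In LV DESeq2 also called Fosb lower at 3E13, where its counts were all 0, and Jun higher at 6E13.

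Egr2 had 3.80, 3.31, 9.04 and 3.54 CPM at 3E13 in LV, against 19.5, 4.38, 7.68 and 3.70 CPM in cKO LV and 0.656 to 1.28 CPM in WT LV. The dosed libraries overlapped with cKO and lay above WT. The log2 fold change was -0.84 ± 0.67 from cKO (adjusted p = 0.442), or -0.091 without cKO animal 177 (adjusted p = 0.951), and 2.54 ± 0.69 from WT (adjusted p = 0.0638, or 0.00197 by DESeq2). At 6E13 it had 3.81, 27.0 and 2.18 CPM in LV, with animal 631 the highest of all 16 LV libraries and animals 250 and 645 still above WT. The log2 fold change from WT was 3.69 ± 0.72 (adjusted p = 0.108, or 3.56e-05 by DESeq2), and 1.83 without animal 631 (adjusted p = 0.715).

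In RV Egr2 had 7.26 and 5.84 CPM at 3E13 and 8.51, 9.47 and 4.02 CPM at 6E13, against 23.7, 8.10, 11.1 and 8.03 CPM in cKO and 0.590, 1.04 and 0.947 CPM in WT. Both doses lay above WT with no overlap, and 3E13 also lay below cKO. The log2 fold change from WT was 2.92 ± 0.52 at 3E13 (adjusted p = 0.00606) and 3.08 ± 0.49 at 6E13 (adjusted p = 0.0225). From cKO it was -0.96 ± 0.47 at 3E13 (adjusted p = 0.219) and -0.79 ± 0.40 at 6E13 (adjusted p = 0.188). Egr2 was the 1 member called against WT in RV at 3E13 (5.80% of all genes were higher) and at 6E13 (0.849% of all genes were higher). On log2(TPM + 1), which compresses low genes such as Egr2, neither call held (limma, adjusted p = 0.15 at 3E13 and 0.217 at 6E13). The 6E13 call was lost in 5 of the 6 fits that left out 1 animal (edgeR, adjusted p between 0.0579 and 0.0849). Among these was the fit without animal 631, with a log2 fold change of 2.86 (edgeR, adjusted p = 0.0579). The marker sums moved as well, with activated fibroblast markers at 652 to 841 CPM in 3E13 RV, 146 to 869 CPM in 6E13 RV and 36.5 to 55.9 CPM in WT RV. Their part in the Egr2 difference was not tested.

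**Figure D3:**
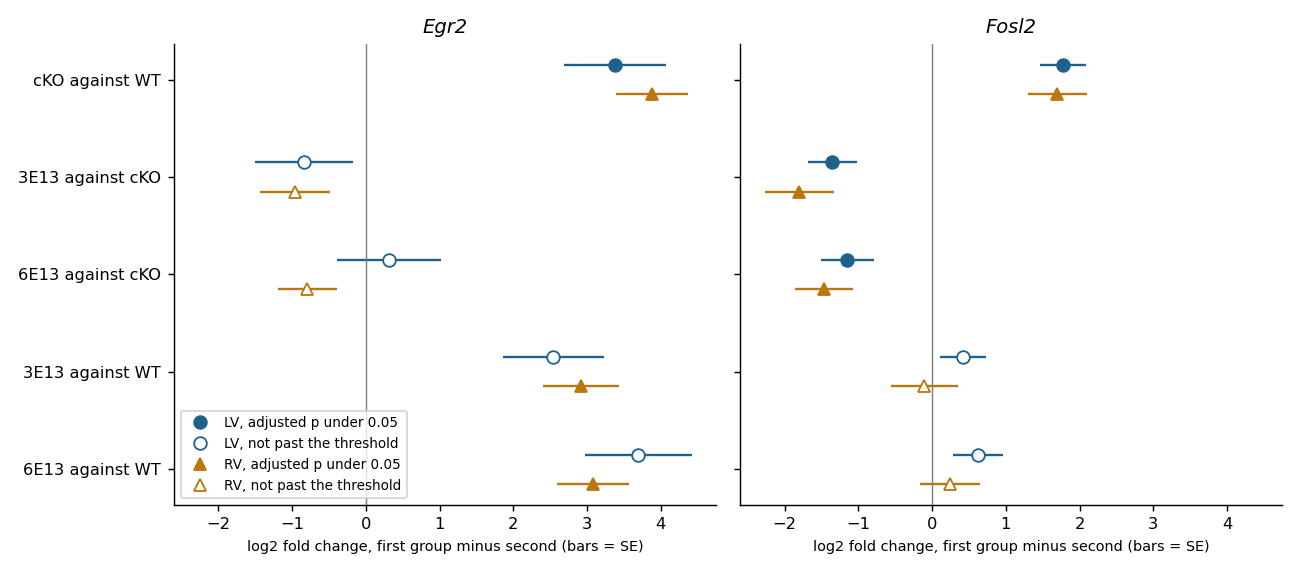
Fitted log2 fold changes of Egr2 and Fosl2 in 5 comparisons between groups, the first group minus the second, in LV and RV, with bars for the SE and filled symbols for an adjusted p under 0.05. Fosl2 is below 0 in all 4 comparisons of a dose with cKO, and Egr2 is above 0 in all 4 comparisons of a dose with WT.

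In LV none of the 9 passed the adjusted test against WT at 3E13, where 2.50% of all genes did, with 1 of 9 at an unadjusted p under 0.05 (16.6% of all genes) and 1 called by DESeq2. At 6E13 in LV none passed either, where 0.0853% of all genes did, while 8 of 9 had an unadjusted p under 0.05, as did 6.25% of all genes, and DESeq2 called 3. All 8, the barely counted Fosb among them, were higher in 6E13 than in WT. However, 8 of the 9 members had their highest LV value in 6E13 animal 631. Without that animal the log2 fold change of Fos from WT was 1.54, in place of 4.19. No count of members at an unadjusted p was made without it. Junb and Egr2 lay above WT without overlap in 3E13 LV (7.29% of all genes), and Fosb, Junb, Egr1 and Egr2 did in 6E13 LV (6.31%). In RV Junb, Egr1 and Egr2 lay above WT without overlap at 3E13 (23.7% of all genes), and Junb, Egr1, Egr2 and Ier2 at 6E13 (12.3%). Against each other the doses differed for none of the 9 in either ventricle by edgeR or DESeq2 (0.0122% of all genes in LV and 0.0404% in RV by edgeR), with 4 of 9 in LV and 1 of 9 in RV at an unadjusted p under 0.05 (5.56% and 8.65% of all genes).

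Much of the 6E13 LV pattern came from 1 library. Animal 631 had 149 CPM of Fos in LV, against 1.72 to 35.0 CPM in the other 15 LV libraries with cKO animal 177 the next highest. Its Egr1 was 530.2 CPM, against 57.0 and 89.6 CPM in the other 6E13 LV libraries, and its Fosb was 45.7 CPM (1045 counts), against 1.11 and 3.54 CPM. Jun was 175 CPM in this library and 74.5 and 86.4 CPM in the other 6E13 LV libraries. Of the 9 members, 8 had their highest LV value in this library, all except Fosl2, where 3.64% of all genes tested did. Of the 33 other immediate early genes 8 did, where cKO animals 264 and 177 held the highest LV value of 10 and 9.

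The Egr1 call against cKO in 6E13 LV (log2 fold change 1.97 ± 0.61, adjusted p = 0.0383) was 0.36 without animal 631 (adjusted p = 0.66). It was also lost without cKO animal 180, 257 or 264, with a sex term (adjusted p = 0.06), with only these groups fitted (adjusted p = 0.163) and by limma on log2(TPM + 1) (adjusted p = 0.302). Egr1 was the 1 member higher than cKO there, where 8.65% of all genes were higher. By marker expression, animal 631 was read as male and animals 250 and 645 as female. The LV library of animal 631 was also the lowest of the 3 6E13 LV libraries in total counts (22964339, against 34984848 and 25616850). The same held for cardiomyocyte markers (28285 CPM, against 29206 and 36775 CPM) and for macrophage and monocyte markers (229 CPM, against 288 and 264 CPM). Its human PKP2 was the lowest as well (333 CPM, against 534.8 and 372 CPM). Their part was not tested. In RV the same animal had 35.9 CPM of Fos, 12.6 CPM of Fosb and 139.7 CPM of Egr1, the highest of the 3 6E13 RV libraries for each. With both 6E13 animal 631 and cKO animal 177 left out, 4 members were still higher in cKO than in WT in LV (Fos, Fosl2, Junb and Egr2) and 5 in RV, and none was called in either dose against cKO in RV.

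Of the lists, 8 of 33 other immediate early genes were lower in 3E13 than in cKO in LV and none higher, where 6.25% of all genes were lower and 5.52% higher. Ctgf averaged 161 CPM at 3E13 and 446 CPM in cKO (log2 fold change -1.47 ± 0.26, adjusted p = 0.00452), and the clock gene Per1 averaged 51.3 CPM at 3E13 and 181 CPM in cKO (-1.82 ± 0.52, adjusted p = 0.0351). At 6E13 in LV 4 were lower and 1 higher (8.16% and 8.65% of all genes), with Ctgf at 92.9 CPM (-2.26 ± 0.30, adjusted p = 0.00051). The 1 higher was Arc, best known from synapses (1.58 ± 0.51, adjusted p = 0.0446). In RV 6 were lower and 1 higher at each dose, where 3.83% of all genes were lower and 4.77% higher at 3E13, and 10.9% lower and 11.2% higher at 6E13. Of the 20 feedback genes 5 were lower and 3 higher at 3E13 in LV, and 5 lower and 2 higher at 6E13, among them Errfi1 (-1.69 ± 0.36 at 3E13, adjusted p = 0.00994, and -1.84 ± 0.40 at 6E13, adjusted p = 0.00744).

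The ventricles of the same heart were then compared in the 12 animals with both. Jun was lower in RV than in LV, with a log2 difference of -0.32 ± 0.08 (adjusted p = 0.0364), and was higher in RV in 2 of 12 animals. It was the 1 member called, where 8.61% of all 17981 genes were. The call was lost in 8 of the 12 fits that left out an animal, with adjusted p between 0.0514 and 0.162, and without the pairing by animal (adjusted p = 0.281). Egr2 was higher in RV in 10 of 12 animals (log2 difference 0.32 ± 0.22, adjusted p = 0.429) and Fos in 9 of 12 (0.10 ± 0.19, adjusted p = 0.82). Without 6E13 animal 631 both were called higher in RV, with log2 differences of 0.54 for Egr2 (adjusted p = 0.0209) and 0.32 for Fos (adjusted p = 0.0287).

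The pieces of one heart were also compared with each other within the groups. For Fos, Junb, Egr1 and Nr4a1 all 12 animals lay on the same side of their group mean in both ventricles, and for Ier2 11 of 12 did. Jun and Egr2 did so in 9 of 12 animals, and Fosb and Fosl2 in 7 of 12. For Fos, an animal above its group mean in LV was thus also above it in RV. Each mean came from the same few animals, so the 12 agreements are not independent. The same count was not made over all genes. The pieces share an animal, and the day and manner of collection are not given.

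**Figure D4:**
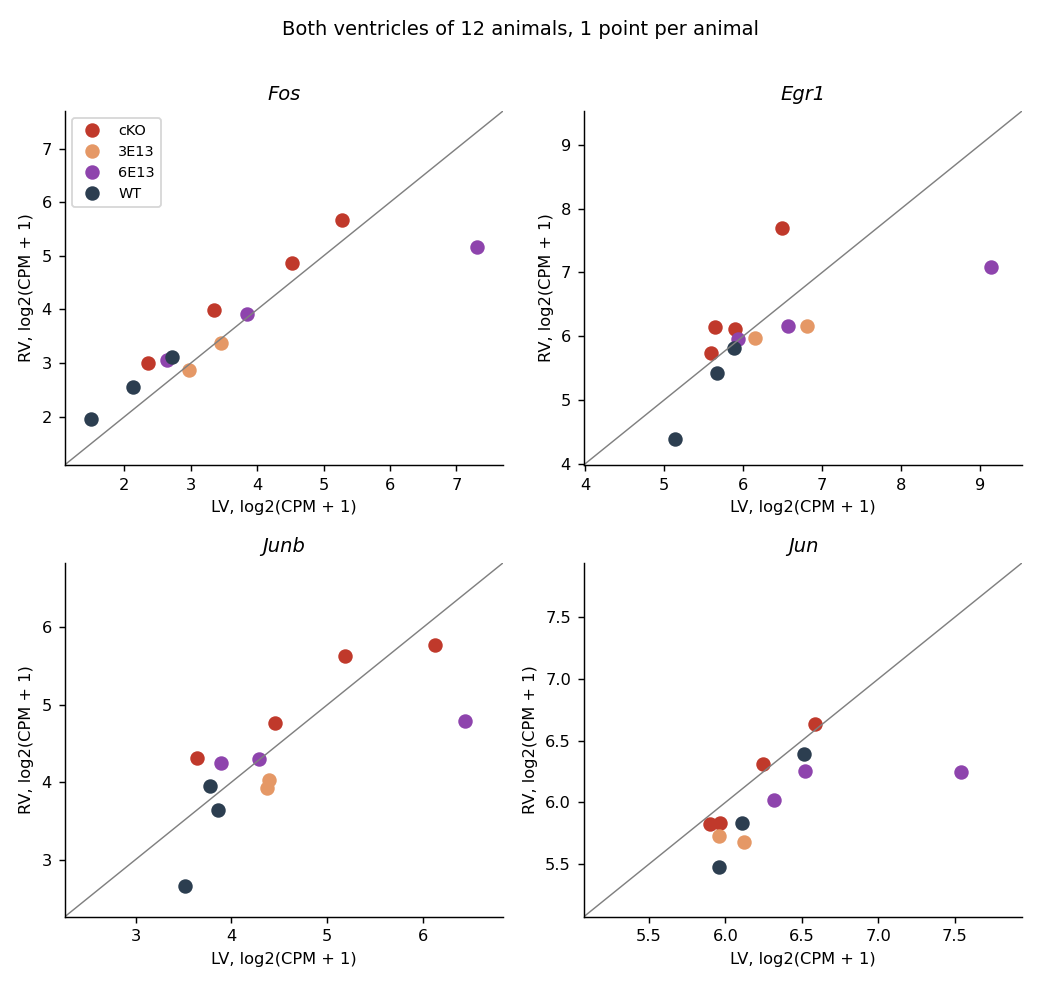
Level of Fos, Egr1, Junb and Jun in RV (vertical axis) against LV (horizontal axis), both as log2(CPM + 1), for the 12 animals with both ventricles, coloured by group, with the line of equal levels. Points of Fos, Egr1 and Junb spread along the line, and for Jun 10 of 12 animals lie below it.

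Within the groups several members varied with Fos in LV. As deviations from the group mean of log2 CPM over the 16 LV libraries, Egr1 was the gene most like Fos of 13354 ranked (Pearson's r = 0.91), with Nr4a1 at rank 4 (0.88), Ier2 at rank 5 (0.88) and Junb at rank 9 (0.84). Other genes among the first 10 were Prkci, an atypical protein kinase C, at rank 2, Cyr61, a matrix protein related to Ctgf, at rank 3, the nuclear receptor Nr4a2 at rank 6 and the antiproliferative gene Btg2 at rank 8, with A730049H05Rik and Wdr5 at ranks 7 and 10. Jun was at rank 37 (0.74), Fosb at rank 49 (0.73), Egr2 at rank 80 (0.69) and Fosl2 at rank 137 (0.65). Without 6E13 animal 631 and cKO animal 177, Egr1 was at 0.85, Nr4a1 at 0.86 and Ier2 at 0.80, whereas Junb was at rank 51 (0.72), Fosb at rank 409 (0.56), Fosl2 at rank 687 (0.51) and Egr2 at rank 1690 (0.37). Other pairs were less alike, with r = 0.31 for Fosl2 and Egr1 (0.0099 without these animals) and 0.43 for Egr2 and Nr4a1 (0.11). Over the 12 RV libraries no member was among the first 10 of 13763, and the nearest were Ier2 at rank 17 (0.84) and Egr1 at rank 21 (0.83). There Poc1b, a centriole protein, was first (0.94) and Btg2 was at rank 6 (0.88). Without 6E13 animal 631 and cKO animal 177 in RV, Ier2 was at rank 7 (0.89), and Jun rose from rank 1467 (0.40) to rank 60 (0.81). Egr1 then fell to rank 378 (0.68), and Egr2 from rank 1904 (0.34) to rank 10252 (-0.28). These libraries share depth, tissue and animals, and the values are a description.

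The spread between animals of a group was wide for most of the 9. In LV the within-group SD of log2 CPM was 1.47 for Fos, 1.02 for Egr2, 1.01 for Nr4a1 and 0.91 for Egr1, between percentiles 94.2 and 97.3 of 13355 genes. It was 0.52 for Fosl2, at percentile 81.8. In RV it was 1.00 for Fos (percentile 95.7 of 13764 genes), 0.60 for Egr2 (percentile 87.9) and 0.32 for Ier2 (percentile 60.0).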

How the data were processed

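Reads from 28 ventricle libraries were quantified by the authors with Salmon 1.8.0 using GENCODE mouse transcripts (GRCm39) plus the vector's human PKP2. The deposited expected counts are estimated reads summed by gene symbol without normalization, the deposited TPM are abundances per transcript length, and a further deposited table holds other values, the average effective length per gene. Labels name polyA RNA and also a stranded total RNA kit that removes ribosomal RNA, and strand use in the counting is not given in the sources used here. The TPM listed sum to 77.9% to 91.4% of the whole per library. Rows without a symbol held 0.000352% to 0.000971% of counts and were left out. Of 39152 symbols, 33105 were found in the mouse annotation, and older symbols (Ctgf, Cyr61) were kept.

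Expected counts were rounded. Separate models of LV and RV, each holding its 4 groups, were tested with edgeR 4.0.16 (quasi-likelihood F test, R 4.3.3) after filterByExpr and TMM scaling, with Benjamini-Hochberg adjustment over 16410 genes in LV and 17307 in RV. Calls required an adjusted p under 0.05. The fold changes are on the log2 scale, their SE is the fold change over the square root of F, and CPM use the TMM-scaled library size. Ventricles were compared over 17981 genes in the 24 libraries of 12 animals, blocking on animal. The pairing comes from the animal number in the labels. Over all genes, the deviations of both pieces of an animal had r of 0.04 to 0.36 (median 0.13). No r was computed for pieces of different animals, so these values do not test the pairing. The 38 pairs of libraries within groups were checked for copies, and none was found (chi-squared per degree of freedom at least 17.9).

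Depth was 19364737 to 39381144 counts per library. A library with 0 counts may have had up to 3, which covers counting error only. Named genes were the 9 members, up to 4 called genes per list with the smallest adjusted p, and the 10 genes most correlated with Fos (Pearson, log2 CPM with a prior count of 2, mean of at least 1 CPM). The members and lists were chosen with earlier results of these data known. The alternatives tried were length offsets, RLE size factors, a fit of all genes without the low-count filter, a sex term (sex taken from marker expression), fits of the compared groups alone, mitochondrial transcripts left out, DESeq2 1.42.0, limma 3.58.1 on log2(TPM + 1) and log2(TPM + 0.1), no block, and each animal left out in turn. Where this left 1 library in 3E13 RV, it was assumed to vary like the other groups. The fit without cKO animal 177 and 6E13 animal 631 was chosen after seeing the data. The scripts were tested on simulated data.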

Additional observations from a re-analysis of the deposited data

Results flagged for a closer look

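In each group of 4 or 5 libraries the gap between the highest or lowest library and its nearest neighbour was set against the group's range (Dixon's 95% critical value). Of the 32 combinations of a gene and a group with counts in every library 4 passed, where chance gives about 1 in 20 for independent, normally distributed values. A further one, Fosb in WT LV, passed because only 1 library had counts. Of these, 3 concern WT animal 637 in LV. Nr4a1 was 42.8 CPM there, with the next WT library at 14.3 CPM, Fosl2 was 49.6 CPM, with the next at 35.6 CPM, and Fosb was 0.945 CPM with 0 counts in the other 4. In RV the same animal had the highest WT levels of Nr4a1 (49.8 CPM), Fosl2 (63.2 CPM) and Jun (84.1 CPM). Egr1 in cKO RV was 212 CPM in animal 177, with the next library at 72.0 CPM. Egr2 in 3E13 LV was 9.04 CPM in animal 252, with the next library at 3.80 CPM. Groups of 2 or 3 libraries, 6E13 LV with animal 631 among them, were not tested in this way. The CPM were not put on a log scale and the combinations share animals, so the number that passed cannot be set against that rate.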

How the results depend on the processing

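Of 620 alternatives to 36 fold changes, 524 kept direction and side of the threshold, 63 lost and 30 gained a call, and 3 turned: Jun in cKO against WT in LV was -0.062 without cKO animal 264 (up to 0.24 without WT animal 637), and Fos in RV against LV was -0.028 without 6E13 animal 250 (up to 0.32 without 6E13 animal 631) and -0.19 without the pairing of ventricles by animal. Of 234 alternatives to the counts of members called, 175 were within 1.5 times. Leaving out the replicate block (the animal) gave 0 members and 393 genes in all in RV against LV, in place of 1 and 1549. Leaving out 1 animal at a time gave 2 to 5 members for cKO against WT in LV (2 without cKO animal 177) and 4 to 6 in RV, 0 to 1 and 0 to 2 for 3E13 against cKO, 1 to 2 and 0 to 1 for 6E13 against cKO, 0 to 0 and 1 to 1 for 3E13 against WT, 0 to 1 in each ventricle for 6E13 against WT, and 0 to 3 for RV against LV (3 without 6E13 animal 631).

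With only the compared groups fitted, 0 members were called for 3E13 against cKO in both ventricles and for 6E13 against cKO in LV, 2 for 3E13 against WT in LV and 1 for 6E13 against WT in LV. DESeq2 gave 2 members for 3E13 against cKO in LV and 3 in RV, 1 for 3E13 against WT in LV and 3 for 6E13 against WT in LV. Length offsets gave 1 for 6E13 against cKO and 1 for 3E13 against WT in LV. Sex as a covariate gave 1 for 6E13 against cKO in LV and 0 for 3E13 against cKO in RV. With either pseudocount limma gave 1 for 6E13 against cKO in LV, 4 for 3E13 against cKO in RV and 5 for 6E13 against cKO in RV, and with log2(TPM + 1) 0 for both doses against WT in RV. Without both cKO animal 177 and 6E13 animal 631 there were 0 for 6E13 against cKO in both ventricles, 0 for 3E13 against cKO in RV and 3 for RV against LV. The cause was not tested.

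Counts over all genes moved by more than 1.5 times. In LV 3E13 against cKO gave 1932 genes, but 49 with only the compared groups and 3555 and 3270 by limma, and 6E13 against cKO gave 2759, but 305 with only the compared groups. In LV 3E13 against WT gave 411 genes, but 1776 with only the compared groups, 924 by DESeq2, and 152 and 195 by limma, and 6E13 against WT gave 14, but 182 with only the compared groups, 101 by DESeq2, 3 with length offsets and 2 by limma. In RV cKO against WT gave 6468 genes, but 10023 and 10098 by limma, and 6E13 against cKO gave 3825, but 6806 and 6630 by limma. In RV 3E13 against cKO gave 1488 genes, but 78 with only the compared groups, 935 with length offsets, 2763 by DESeq2, and 5554 and 5331 by limma. In RV 3E13 against WT gave 1278, but 2131 by DESeq2 and 544 by limma on log2(TPM + 1), and 6E13 against WT gave 151, but 266 with no low-count filter, 41 with a sex term, 78 with only the compared groups, 626 by DESeq2 and 15 by limma on log2(TPM + 1). Between the doses there were 2 in LV, but 38 by DESeq2, and 7 in RV, but 25 with no low-count filter, 82 with only the compared groups and 237 by DESeq2. The test of a larger cKO difference in RV gave 2, but 16 with no low-count filter and 0 without the block. Leaving out 1 animal took 3E13 against cKO in RV to 8 and 9 genes (without 3E13 animal 253 or 181) and in LV to 728 (without 253), 6E13 against cKO to 1169 in LV and 2039 in RV (without 645), 3E13 against WT to 184 in LV (without 3E13 animal 181 or WT animal 626) and 378 in RV (without 253), 6E13 against WT to 2 in LV (without WT animal 248, 626, 637 or 647) and 15 in RV (without WT animal 637), and RV against LV to 483 (without 253) and 2513 (without cKO animal 177). Without both animals named above, 6E13 against cKO in RV gave 2034.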
